A study of Mus musculus with 8 samples.

Results

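Peaks of N6-methyladenosine (m6A) that were called with only 1 of a pair of antibodies on chromatin-associated RNA of mouse embryonic stem cells were compared. Of the 17068 peaks in the 3 deposited lists, 11791 were of this kind. Confidence group 2 (Cfg2) comprised 5472 peaks called with the antibody from Synaptic Systems (SySy), at which the Abcam signal lay below the calling cutoff. Confidence group 3 (Cfg3) comprised 6319 peaks called with the Abcam antibody, with almost no SySy signal. All peaks of both lists were members, and the peaks called with both antibodies were left out. The 8 libraries came from untreated cells of the E14 line and formed 4 groups of 2, namely SySy ChrMeRIP, SySy input, Abcam ChrMeRIP and Abcam input, where ChrMeRIP is m6A immunoprecipitation of chromatin-associated RNA. By the study's methods, the SySy libraries were made with a NEBNext directional kit and the Abcam libraries with a TruSeq stranded kit, while the sample labels name TruSeq for all. If the methods are right, antibody and library kit cannot be told apart. Each list was called on the duplicates of its antibody together. There was therefore 1 list per antibody with no error between replicates, the depth is unknown, and the intervals and p-values below cover only the counting error of the lists, in which peaks of the same gene are not independent.

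m6A is written on nascent RNA by a complex around METTL3 and METTL14, which acts on adenosines in the sequence context DRACH (D is A, G or T; R is A or G; H is A, C or T), with GGACT as the best-known form. In mature messenger RNA the mark is known to gather in long internal exons, in the last exon and near the stop codon, and to be sparse near exon junctions. An antibody precipitates RNA fragments, so a peak marks a stretch around the modified base and not the base itself.

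The 2 lists differed most in the sequence under the peaks. Cfg3 peaks lay on stretches rich in the purines A and G, both in introns and in coding sequence (CDS), whereas Cfg2 peaks had balanced base composition and held GGACT more often. Windows of the interval midpoint and 50 nt on either side were read from mouse assembly GRCm38.p6, which has the coordinates of mm10, on the strand of the peak. In the windows below, capitals mark each GGACT and each unbroken run of at least 8 purines. The first set shows Cfg2 windows of genes that lead by Cfg2 peaks and hold no Cfg3 peak, and was chosen for windows with GGACT. Klf4 encodes a pluripotency transcription factor, Ranbp6 an importin-like protein, Mex3d an RNA-binding protein and Rnf213 a large ubiquitin ligase, while Platr22 is a long noncoding RNA.
Klf4, Cfg2, exon 3, chr4:55530103-55530203, minus strand: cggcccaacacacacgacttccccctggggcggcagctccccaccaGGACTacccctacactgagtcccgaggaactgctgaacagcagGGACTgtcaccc
Ranbp6, Cfg2, exon 1, chr19:29810890-29810990, minus strand: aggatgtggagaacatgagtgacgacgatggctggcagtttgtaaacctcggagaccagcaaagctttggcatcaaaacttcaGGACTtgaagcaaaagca
Mex3d, Cfg2, exon 2, chr10:80381832-80381932, minus strand: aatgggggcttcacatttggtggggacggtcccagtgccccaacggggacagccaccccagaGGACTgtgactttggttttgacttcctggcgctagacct
Platr22, Cfg2, intron 2, chr1:136707961-136708061, plus strand: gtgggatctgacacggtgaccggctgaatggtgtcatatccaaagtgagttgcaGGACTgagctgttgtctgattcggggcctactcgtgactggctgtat
Rnf213, Cfg2, intron 1, chr11:119396492-119396592, plus strand: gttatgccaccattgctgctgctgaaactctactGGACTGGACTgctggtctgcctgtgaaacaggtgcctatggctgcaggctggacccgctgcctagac

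The next set shows the widest Cfg3 peak in the CDS and in introns of genes that lead by Cfg3 peaks and hold no Cfg2 peak. Tenm4 encodes a teneurin cell-surface protein, Exoc4 a subunit of the exocyst, Kat6b a histone acetyltransferase, Atrx a chromatin remodeller and Ankrd11 a chromatin regulator with ankyrin repeats. The CDS window of Tenm4 had 48.5% purines, and the other 7 windows had 60.4 to 88.1%. The window in intron 1 of Atrx held an unbroken run of 29 purines. No GGACT was present in any of these windows, which were chosen by width and not by motif. The sets therefore cannot be compared by GGACT.
Tenm4, Cfg3, exon 31, chr7:96895948-96896048, plus strand: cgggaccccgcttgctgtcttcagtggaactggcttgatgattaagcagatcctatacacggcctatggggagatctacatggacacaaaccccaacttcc
Kat6b, Cfg3, exon 17, chr14:21668402-21668502, plus strand: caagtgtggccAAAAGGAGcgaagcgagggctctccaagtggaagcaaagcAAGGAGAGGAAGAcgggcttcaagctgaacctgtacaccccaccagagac
Atrx, Cfg3, exon 9, chrX:105875335-105875435, minus strand: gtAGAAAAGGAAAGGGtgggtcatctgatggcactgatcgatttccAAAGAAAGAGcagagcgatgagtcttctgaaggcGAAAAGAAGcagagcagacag
Ankrd11, Cfg3, exon 9, chr8:122893351-122893451, minus strand: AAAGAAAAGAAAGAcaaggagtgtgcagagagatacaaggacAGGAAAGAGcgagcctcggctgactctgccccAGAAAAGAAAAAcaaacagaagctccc
Tenm4, Cfg3, intron 2, chr7:96394690-96394790, plus strand: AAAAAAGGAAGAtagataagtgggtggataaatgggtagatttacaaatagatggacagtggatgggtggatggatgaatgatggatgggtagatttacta
Exoc4, Cfg3, intron 11, chr6:33769106-33769206, plus strand: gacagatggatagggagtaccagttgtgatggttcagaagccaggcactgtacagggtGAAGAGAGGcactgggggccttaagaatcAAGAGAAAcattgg
Kat6b, Cfg3, intron 1, chr14:21501696-21501796, plus strand: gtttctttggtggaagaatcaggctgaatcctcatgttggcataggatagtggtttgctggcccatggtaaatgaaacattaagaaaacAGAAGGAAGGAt
Atrx, Cfg3, intron 1, chrX:105904101-105904201, minus strand: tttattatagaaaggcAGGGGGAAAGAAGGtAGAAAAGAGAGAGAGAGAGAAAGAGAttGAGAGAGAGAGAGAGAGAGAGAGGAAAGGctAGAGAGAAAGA

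In genes with peaks of both lists, windows of the nearest pair were set side by side. In Cenpf, which encodes a kinetochore-associated protein, the midpoints were 400 nt apart in exon 12, with 53.5% purines in the Cfg2 window and 64.4% in the Cfg3 window. In Spen, which encodes an RNA-binding transcriptional repressor, they were 326 nt apart, with 58.4% and 63.4%. Ahdc1 went the other way, with 47.5% in the Cfg2 and 37.6% in the Cfg3 window. In intron 4 of the zinc finger gene Zfp704 the values were 44.6% and 51.5%, and neither window held a run of 8 purines.
Cenpf, Cfg2, exon 12, chr1:189657452-189657552, minus strand: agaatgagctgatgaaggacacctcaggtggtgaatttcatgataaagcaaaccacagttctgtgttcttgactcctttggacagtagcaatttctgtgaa
Cenpf, Cfg3, exon 12, chr1:189657852-189657952, minus strand: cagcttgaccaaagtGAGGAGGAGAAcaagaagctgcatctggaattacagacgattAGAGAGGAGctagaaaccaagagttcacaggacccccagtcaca
Spen, Cfg2, exon 12, chr4:141475414-141475514, minus strand: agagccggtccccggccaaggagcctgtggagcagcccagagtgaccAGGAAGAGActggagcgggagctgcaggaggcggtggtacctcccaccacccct
Spen, Cfg3, exon 12, chr4:141475088-141475188, minus strand: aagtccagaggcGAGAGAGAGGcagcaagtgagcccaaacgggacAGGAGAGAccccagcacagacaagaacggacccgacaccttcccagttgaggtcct
Ahdc1, Cfg2, exon 6, chr4:133065870-133065970, plus strand: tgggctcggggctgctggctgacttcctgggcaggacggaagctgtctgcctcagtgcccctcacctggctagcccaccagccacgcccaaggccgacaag
Ahdc1, Cfg3, exon 6, chr4:133065445-133065545, plus strand: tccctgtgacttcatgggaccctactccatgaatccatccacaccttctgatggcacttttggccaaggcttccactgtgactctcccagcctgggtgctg
Zfp704, Cfg2, intron 4, chr3:9464121-9464221, minus strand: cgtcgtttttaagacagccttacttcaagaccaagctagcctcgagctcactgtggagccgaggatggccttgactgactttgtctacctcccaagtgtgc
Zfp704, Cfg3, intron 4, chr3:9464734-9464834, minus strand: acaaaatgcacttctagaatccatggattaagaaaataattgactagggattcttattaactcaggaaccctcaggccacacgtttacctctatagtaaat

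For 3′ UTR peaks of the leading Cfg2 genes, only the 30 nt around the GGACT nearest to the midpoint are shown, with the motif in capitals. Aff1 encodes a scaffold of transcription elongation complexes.
Klf4, Cfg2, 3′ UTR, chr4:55527788-55527817, minus strand: tgaacatgcccGGACTtacaaaatgccaag
Aff1, Cfg2, 3′ UTR, chr5:103851307-103851336, plus strand: ccatctgtggaacacaccttgtgaaGGACT

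Over all peaks, 82.9% of intronic Cfg3 windows (2561 of 3089, 95% Wilson interval 81.5 to 84.2%) contained at least 60% purines, against 7.53% of intronic Cfg2 windows (42 of 558, 5.62 to 10.02%). The difference was -75.4 percentage points (-77.7 to -72.5, Fisher's exact test, two-sided, adjusted p = 4e-271). In the CDS the shares were 48.5% in Cfg3 (880 of 1815) and 9.97% in Cfg2 (211 of 2116), a difference of -38.5 points (-41.1 to -35.9, exact test, adjusted p = 1.2e-165). In the 3′ UTR they were 34.5% of 362 windows in Cfg3 and 3.43% of 1836 in Cfg2, a difference of -31.1 points (-36.2 to -26.3, exact test, adjusted p = 7.3e-60). P-values of the 3 purine and 3 GGACT shares were corrected as 1 family (Benjamini-Hochberg). The whole distribution was shifted. The median purine content was 66.3% in intronic Cfg3 windows (quartiles 62.4 and 71.3%) and 50.5% in intronic Cfg2 windows (46.5 and 54.5%), and in the CDS it was 59.4% (52.0 and 66.3%) and 51.5% (47.5 and 55.4%).

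**Figure D1:**
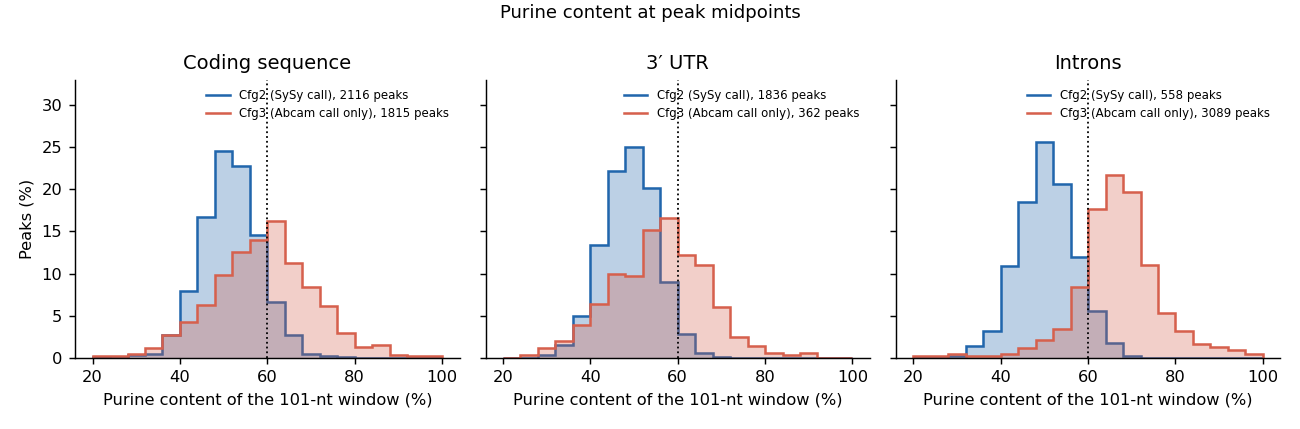
Percentage of peaks (vertical axis) by purine content of the window (horizontal axis, in bins of 4 points) in the CDS, 3′ UTR and introns, for Cfg2 and Cfg3. The dotted line marks 60%. Intronic Cfg3 windows centre on 66.3% and intronic Cfg2 windows on 50.5%, while the CDS distributions overlap more.

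The purine share at Cfg3 peaks was higher than over their host sequence. Among all windows of the same length of the introns that held Cfg3 peaks, weighted by peak, 15.7% reached 60% purines, and for introns with Cfg2 peaks 9.79% did. Among all windows centred on the coding bases of the host genes, the shares were 22.3% for Cfg3 and 12.1% for Cfg2. Thus Cfg3 windows exceeded their host sequence in both regions, whereas the Cfg2 shares of 7.53 and 9.97% lay slightly below it. These host shares are given as a description, with no test. In bins of 20 nt along the strand, the purine content around intronic Cfg3 peaks rose from 51.1% beyond 400 nt to 68.3% in the bin centred 39.5 nt downstream of the midpoint. Bins more than 5 points above the outer level covered 340 nt in introns and 160 nt in the CDS. These profiles follow unspliced genomic sequence, so around CDS peaks the outer bins also cover introns. The share of intron bases in them was not measured. In no bin around Cfg2 peaks was the outer level exceeded by 5 points.

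Both purines contributed. Intronic Cfg3 windows consisted of 31.7% A, 35.0% G, 14.3% C and 19.1% T, against 24.8% A, 25.7% G, 23.3% C and 26.2% T in intronic Cfg2 windows. In the CDS the lists differed in A, with 31.9% A and 27.4% G in Cfg3 against 23.6% A and 28.1% G in Cfg2. The flanking sequence of Cfg2 CDS peaks had 24.7% A and 25.8% G. That of Cfg3 CDS peaks had 27.4% A and 23.9% G, so both purines were higher in the Cfg3 windows than in the genomic sequence beside them. This flanking sequence is unspliced and includes introns, so it is not a comparison within coding sequence. The median distance of exonic peaks to the nearest junction was 411 nt in Cfg2 and 272 nt in Cfg3. Long uninterrupted tracts accounted for a minority of the Cfg3 windows. A run of at least 20 purines was found in 9.49% of intronic Cfg3 windows (293 of 3089) and 0.358% of intronic Cfg2 windows (2 of 558), and in 5.73% and 0.0473% of CDS windows (104 of 1815 and 1 of 2116). The CpG dinucleotide went the other way, with a mean of 3.93 per CDS window in Cfg2 against 2.22 in Cfg3, and 2.28 against 1.08 in introns.

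**Figure D2:**
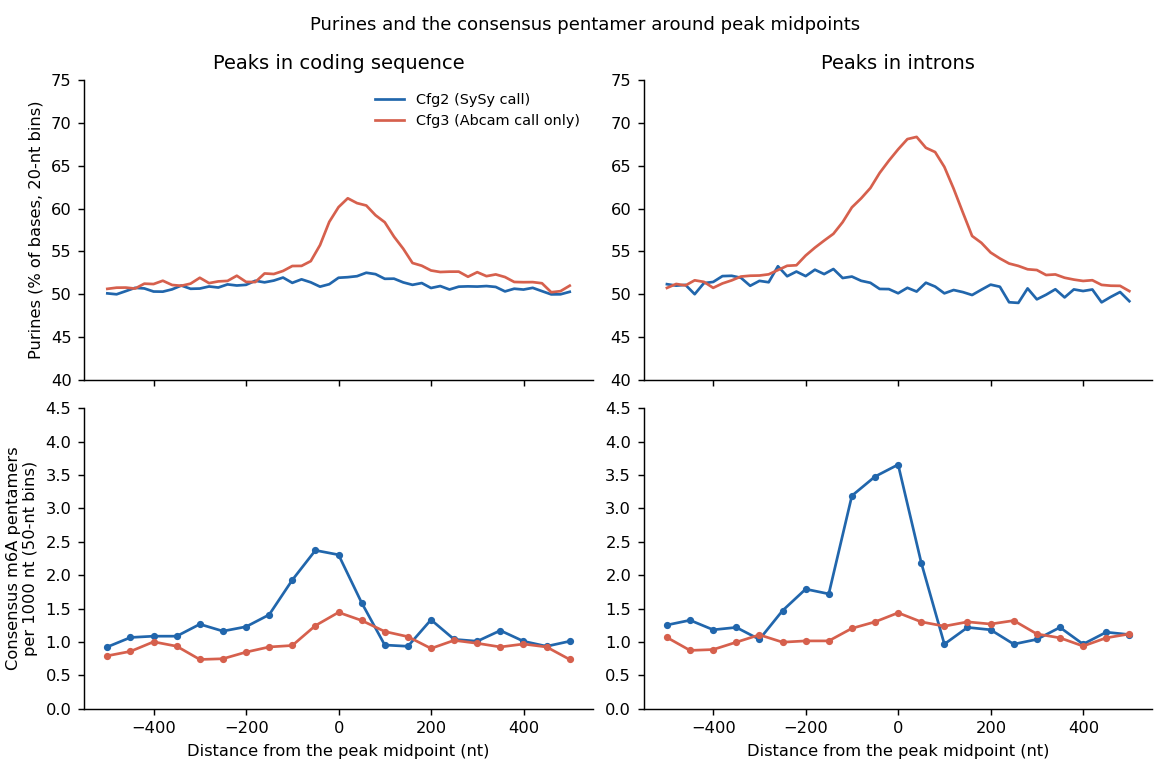
Top, purines as a percentage of bases in 20-nt bins; bottom, occurrences of the consensus m6A pentamer per 1000 nt in 50-nt bins, against distance from the peak midpoint along the strand (nt), for peaks in the CDS (left) and introns (right). The sequence is genomic, so the CDS panels include introns away from the midpoint. Purines rise at Cfg3 midpoints, to 68.3% in introns. The pentamer rises at Cfg2 midpoints, to 3.66 per 1000 nt in introns, and less at Cfg3 midpoints, to 1.44.

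GGACT, searched on the strand of the peak, was more frequent in Cfg2 than in Cfg3 windows in introns and the CDS. It was present in 28.9% of intronic Cfg2 windows (161 of 558, 25.2 to 32.7%) and in 12.3% of intronic Cfg3 windows (379 of 3089, 11.2 to 13.5%), a difference of 16.6 points (12.8 to 20.6, exact test, adjusted p = 7.6e-21). In the CDS it was present in 20.2% of Cfg2 windows (428 of 2116) and 12.6% of Cfg3 windows (229 of 1815), a difference of 7.61 points (5.30 to 9.89, exact test, adjusted p = 1.8e-10). In the 3′ UTR the shares were 23.1% and 21.3%, and the difference of 1.82 points did not pass the test (-3.06 to 6.20, exact test, adjusted p = 0.49). Over the whole interval in place of the window, the 3′ UTR difference was 8.35 points (exact test, adjusted p = 0.0017), but Cfg2 intervals are wider (median 159 against 135 nt). The share of all windows of the same length that held GGACT was 10.7% in the introns of Cfg2 peaks and 8.82% in those of Cfg3 peaks, and 10.97% and 9.36% in the CDS of the host genes. Both lists thus held GGACT more often than their host sequence in these regions, Cfg3 by less, with no test.

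The motif was also positioned differently around the midpoint. In introns GGACT occurred 3.11 times per 1000 nt within 75 nt of Cfg2 midpoints and 1.16 times beyond 225 nt, a ratio of 2.67. Around intronic Cfg3 midpoints it occurred 1.35 and 1.05 times, a ratio of 1.29. In the CDS the ratios were 1.96 in Cfg2 and 1.51 in Cfg3. Ratios for CDS peaks set the centre against genomic sequence that includes introns. The purine pentamer AGGAG, chosen after its values were seen, had ratios of 0.743 in Cfg2 and 3.06 in Cfg3 in introns. The wider DRACH consensus rose less, with ratios of 1.32 in Cfg2 and 1.13 in Cfg3 in introns, and 1.31 and 1.15 between genes. Its order was reversed in the CDS, with 1.15 in Cfg2 and 1.24 in Cfg3, and the ratio was also higher in Cfg3 in the 3′ UTR.

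All possible pentamers were then compared between the lists by their presence in the window, separately for exons and introns. Exonic windows pooled the 5′ UTR, CDS, 3′ UTR and noncoding exons, and the mix of these differed between the lists. Intronic windows also differed between the lists in their share near 5′ splice sites and at positions exonic in another transcript, as given below. How far these differences enter the exonic and intronic calls was not tested. A pentamer was called at an adjusted p under 0.05 (Fisher's exact test, Benjamini-Hochberg over all of them) and a ratio of shares of at least 1.5. In exons 230 (22.5%) were more frequent in Cfg2 and 89 (8.69%) in Cfg3, and in introns 449 (43.8%) and 135 (13.2%). Of the 32 pentamers made of A and G only, 26 were called for Cfg3 in exons and 31 in introns, and 0 were called for Cfg2. Of the 32 made of C and T only, 13 were called for Cfg2 in exons and all 32 in introns. Of the 244 pentamers that hold CG, 108 were called for Cfg2 and 17 for Cfg3 in exons, against 127 and 2 in introns. These groups were formed after the calls were seen and are read against the shares over all pentamers. Calls of the A and G and of the C and T pentamers largely restate the difference in purine content and are not a separate result.

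The exonic pentamers with the largest ratio toward Cfg3 were AAGAG (33.6% of Cfg3 against 12.6% of Cfg2 windows, ratio 2.66), AGAGG (ratio 2.42) and AAGAA (2.26). AGAAG reached 40.5% of Cfg3 windows against 18.0%. AAACG, at 5.54% against 2.59%, was the one among the 10 leaders that holds a pyrimidine. In introns the leaders were GGTAG (18.4% against 3.94%, ratio 4.66), TAGGG (15.8% against 3.76%, 4.19) and GATAG (14.1% against 3.41%, 4.15), followed by GAGGG and GAAGG (ratios 3.94 and 3.74). Of the 10 leaders, 5 hold a T within purines, namely the first 3 and, with ratios of 3.39 and 3.29, AGGTA and GGATA. Among intronic peaks with an unmasked midpoint the 5 ratios were 4.80, 4.83, 3.89, 4.66 and 3.77 in this order, so the ratios were of like size outside annotated repeats. The leaders toward Cfg2 all held CG. In exons CGCGC was present in 4.28% of Cfg2 against 0.480% of Cfg3 windows (ratio 8.92), and in introns CCCGC in 6.09% against 0.453% (13.4).

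Of the 18 pentamers of the DRACH consensus, GGACT and TGACT were called for Cfg2 in exons (21.7% against 13.96%, and 16.5% against 10.2%), while 3 were called for Cfg3. These were AAACA (16.6% against 10.3%), GAACA (16.97% against 10.2%) and AGACA. The last was present in 23.3% of exonic Cfg3 windows against 12.9% in Cfg2. In introns 12 were called for Cfg2, led by TGACT (20.4% against 7.67%), TAACC and GGACT, and only AGACA (27.4% against 15.2%) and GAACA for Cfg3. All DRACH pentamers called for Cfg3 thus end in A. In exons 11.1% of the DRACH pentamers were called for Cfg2 and 16.7% for Cfg3, beside 22.5% and 8.69% of all pentamers. In introns the shares were 66.7% and 11.1%, beside 43.8% and 13.2% of all pentamers. GGACA was in 22.1% of Cfg3 against 17.2% of Cfg2 windows in exons, below the ratio of 1.5.

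In the CDS the purine windows were reflected in the codons. Glutamate made up 12.4% of the 56926 codons that lay wholly inside Cfg3 windows, against 6.89% of 67596 codons inside Cfg2 windows. Over the entire coding sequences of the same genes it was 8.43% for Cfg3 and 7.504% for Cfg2. Lysine followed, with 8.71% in Cfg3 and 4.91% in Cfg2 windows, and 6.70% and 5.77% over the host coding sequences. Both acids are written by purine-only codons. GAA was the codon with the largest ratio (5.64% against 2.56%, ratio 2.20), followed by the arginine codon AGA (2.16% against 1.07%, 2.01). AAA (ratio 1.88), AAG (1.70) and GAG (1.56) were next. Arginine as a whole differed little (6.66% against 6.25%). Lowest in Cfg3 relative to Cfg2 were cysteine (1.30% against 2.48%), phenylalanine (1.99% against 3.36%), tryptophan (0.673% against 1.09%) and leucine (6.88% against 10.3%). The codon shares have no test.

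**Figure D3:**
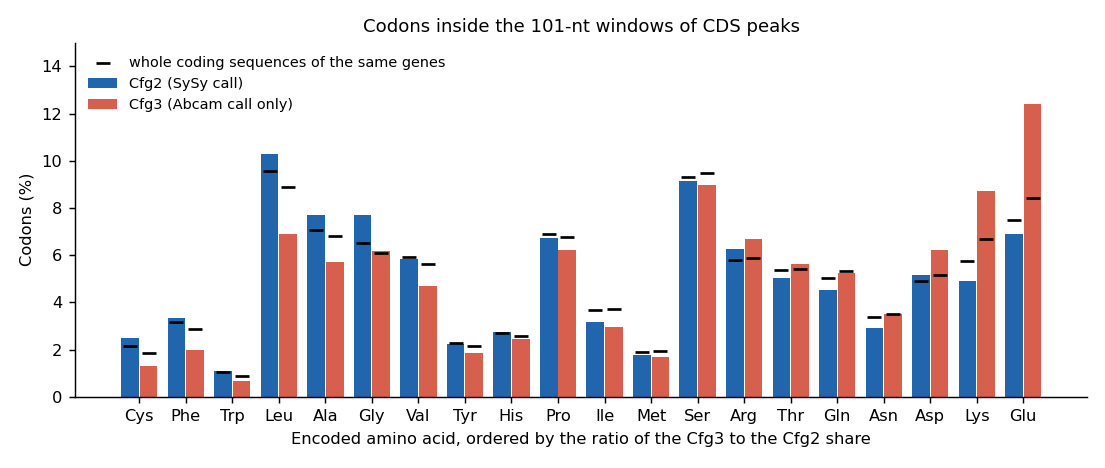
Percentage of codons (vertical axis) that encode each amino acid inside the windows of CDS peaks, for Cfg2 and Cfg3, with black ticks for the entire coding sequences of the same genes. Glutamate reaches 12.4% in Cfg3 windows and leucine falls to 6.88%.

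The position of the peaks on genes was compared next, by 11 Fisher's exact tests adjusted together, of which 9 had an adjusted p under 0.05. Peaks were placed by their midpoints on 1 representative transcript per gene, that with the longest coding sequence. Of the Cfg2 peaks 2116 lay in the CDS, 1836 in the 3′ UTR, 310 in the 5′ UTR, 105 in exons of noncoding RNA, 558 in introns and 547 between genes. Of the Cfg3 peaks 1815 lay in the CDS, 362 in the 3′ UTR, 42 in the 5′ UTR, 73 in exons of noncoding RNA, 3089 in introns and 938 between genes.

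Both ends of the transcript held a larger share of exonic Cfg2 than Cfg3 peaks. The last exon held 60.8% of them in coding genes with several exons (2493 of 4097) against 41.5% in Cfg3 (902 of 2171), a difference of 19.3 points (16.7 to 21.8, exact test, adjusted p = 1.4e-47). The 5′ UTR held 7.27% of exonic peaks of coding genes in Cfg2 and 1.89% in Cfg3, a difference of 5.38 points (4.39 to 6.33, exact test, adjusted p = 2.4e-22). Within 200 nt of the transcript start lay 4.58% of exonic Cfg2 and 1.66% of exonic Cfg3 peaks (2.92 points, 2.08 to 3.72, exact test, adjusted p = 2e-10). With a limit of 100 nt, the shares were 0.779% and 0.480%, and the difference of 0.299 points did not pass (exact test, adjusted p = 0.21). By the study's methods, peaks near transcript starts may be the related mark m6Am, which m6A antibodies do not separate from m6A. This was not tested here. Cfg2 peaks of the 5′ UTR were rich in CG, with a mean of 8.79 per window against 3.79 in Cfg3.

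Cfg3 peaks lay closer to exon junctions. Within 100 nt of a junction lay 23.8% of exonic Cfg3 peaks (523 of 2199) and 6.86% of exonic Cfg2 peaks (286 of 4169), a difference of -16.9 points (-18.9 to -15.0, exact test, adjusted p = 2.3e-77). Of all exonic bases of the host transcripts, weighted by peak, 36.7% in Cfg3 and 34.6% in Cfg2 lay that near to a junction, so both lists were below their host transcripts. The median distance to the nearest junction was 411 nt in Cfg2 (quartiles 226 and 775) and 272 nt in Cfg3 (107 and 708). Among CDS peaks in internal exons, 83.6% of Cfg2 (864 of 1034) and 67.2% of Cfg3 (785 of 1169) lay in an exon of at least 400 nt (16.4 points, 12.9 to 19.9, exact test, adjusted p = 7.4e-19). With a limit of 1000 nt the shares were 45.7% and 41.1%, and the difference fell to 4.68 points (exact test, adjusted p = 0.035). Purine windows were more frequent among Cfg3 CDS peaks in shorter exons, at 66.9% (269 of 402) against 43.2% (611 of 1413) in exons of at least 400 nt, whereas in Cfg2 the shares were 10.4% and 9.92%. GGACT in the same Cfg3 classes went from 6.47% to 14.4%. These classes were formed after the values were seen and were not tested.

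**Figure D4:**
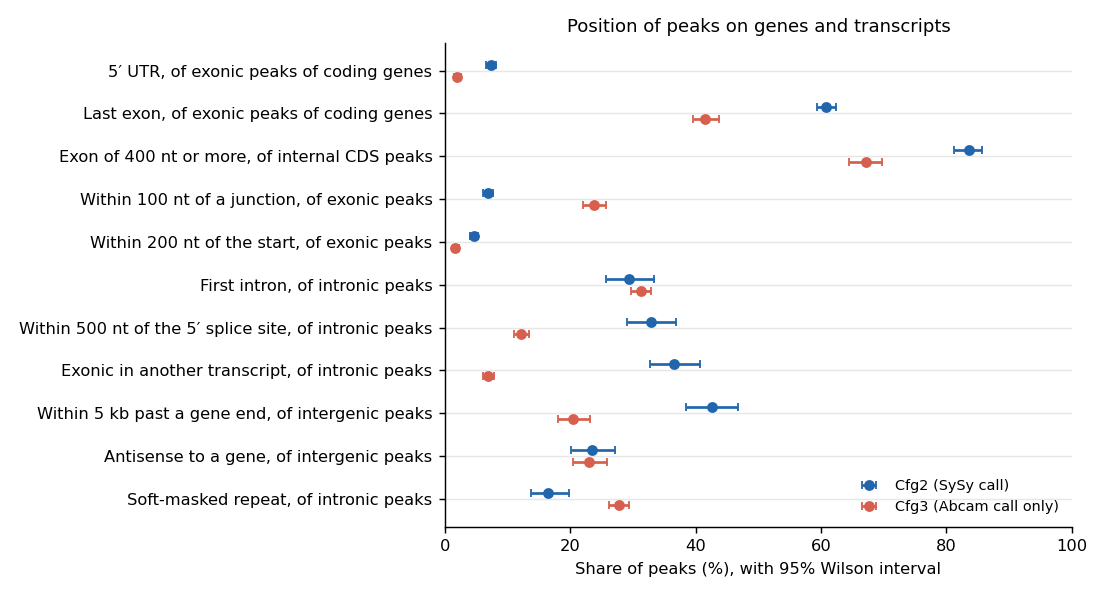
Share of Cfg2 and Cfg3 peaks (horizontal axis, %, bars are 95% Wilson intervals) that meet each of the 11 position measures, each over the peaks named at its left. Intervals of the lists are apart except for the first intron and for antisense positions.

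In introns, 32.8% of Cfg2 peaks (183 of 558) and 12.1% of Cfg3 peaks (375 of 3089) lay within 500 nt of the 5′ splice site, a difference of 20.7 points (16.7 to 24.8, exact test, adjusted p = 6.8e-30). Positions that are exonic in another annotated transcript made up 36.6% (204 of 558) and 6.86% (212 of 3089), a difference of 29.7 points (25.7 to 33.9, exact test, adjusted p = 8.2e-69). The first intron held 29.4% of Cfg2 and 31.2% of Cfg3 peaks in genes with several introns, and the difference of -1.88 points did not pass the test (-5.91 to 2.40, exact test, adjusted p = 0.43). Introns with Cfg3 peaks were longer, with a median of 11545 nt against 5724.5 nt for Cfg2, and lay in longer genes (median span 70998 against 44738 nt). A soft-masked base, which marks an annotated repeat, was at the midpoint of 27.7% of intronic Cfg3 and 16.5% of intronic Cfg2 peaks (-11.2 points, -14.5 to -7.54, exact test, adjusted p = 1.1e-08).

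The purine share of Cfg3 exceeded that of Cfg2 in each of these classes. Among Cfg3 peaks with an unmasked midpoint 83.3% of windows (1860 of 2234) had at least 60% purines, and with a soft-masked midpoint 82.0% (701 of 855). In Cfg2 the shares were 5.36% (25 of 466) and 18.5% (17 of 92). The difference between the lists was -77.9 points for unmasked midpoints (exact test, adjusted p = 2.1e-238) and -73.95 points without positions exonic in another transcript (exact test, adjusted p = 2.1e-176), both alternatives chosen after the data were seen. The other classes have no test. At positions exonic in another transcript, 74.1% of Cfg3 windows (157 of 212) and 3.92% of Cfg2 windows (8 of 204) were purine-rich. In intervals of full width, 250 nt, they were 84.5% (98 of 116) and 5.45% (3 of 55). Within 500 nt of the 5′ splice site the shares were 75.5% in Cfg3 and 2.73% in Cfg2. By chromosome, the share ranged from 76.2% to 94.4% for Cfg3 and from 0% to 18.2% for Cfg2. GGACT was present in 33.3% (118 of 354) of intronic Cfg2 windows that are not exonic in another transcript and in 21.1% (43 of 204) of the others, and in 42.4% (39 of 92) of those with a soft-masked midpoint against 26.2% (122 of 466) of those with an unmasked one.

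Between genes, 42.6% of Cfg2 peaks (233 of 547) and 20.5% of Cfg3 peaks (192 of 938) lay within 5000 nt past the end of a gene on the same strand, a difference of 22.1 points (17.2 to 27.0, exact test, adjusted p = 6e-19). The share antisense to a gene was 23.4% and 23.0%, and the difference of 0.373 points did not pass (-3.998 to 4.91, exact test, adjusted p = 0.90).

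The peaks of both lists fell in 4689 genes. A Cfg2 peak lay in 2917 of them and a Cfg3 peak in 2855, and 1083 genes held both, which is 37.1% of the Cfg2 genes and 37.9% of the Cfg3 genes. Genes with peaks of both lists were the largest, with a median span of 50320 nt and 13 exons, against 20811 nt and 8 exons for genes with Cfg2 peaks only and 34460.5 nt and 11 exons for genes with Cfg3 peaks only. No Cfg2 interval shared a base with a Cfg3 interval on the same strand (0 pairs). This follows from how the lists were made, since peaks called with both antibodies went to a separate list, and is not a finding. In 2 pairs, in the CDS of Rsbn1 and Magi1, the intervals touched end to end. Within 250 nt of a peak of the other list lay 248 Cfg2 peaks (4.53%) and 237 Cfg3 peaks (3.75%).

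Purine content differed also within single genes. Of the 142 genes with intronic peaks of both lists, the mean purine content was higher in the Cfg3 windows in 133 (93.7%) and lower in 9. Of the 596 genes with exonic peaks of both lists, it was higher in Cfg3 in 416 (69.8%) and lower in 163. Cfg3 peaks lay nearer to the 5′ end of the messenger RNA in 359 of 589 genes (61.0%), with medians of 0.381 of the transcript length for Cfg3 and 0.456 for Cfg2. They lay closer to a junction in 355 of 574 genes (61.8%).

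Among the 728 genes with at least 4 peaks of the lists together, 85 (11.7%) held at least 4 Cfg2 peaks and no Cfg3 peak, and 138 (19%) held at least 4 Cfg3 peaks and no Cfg2 peak. This is a rule of size with no test. Klf4 led the first kind with 10 peaks, whose windows had 35.6 to 64.4% purines. They covered the gene from the 5′ UTR to the 3′ UTR, with 4 in CDS exon 3 and 3 in the 3′ UTR between 361 and 685 nt past the stop codon. The other leaders by Cfg2 peaks were mostly exonic. Ranbp6 held 9, all in its single coding exon. Trim71, which encodes an RNA-binding ubiquitin ligase, held 8, and Fzd7, a Wnt receptor gene, held 7. Mex3d held 7 in the CDS, and Aff1 held 2 in the CDS and 4 in the 3′ UTR. Platr22 held 5 intronic and 2 exonic peaks, and Rnf213 2 and 5. 1700017B05Rik held 6. Median purine content over the peaks of these genes ranged from 45.5% in 1700017B05Rik to 50.99% in Trim71.

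The leading genes of the second kind varied in purine content, beside 67.5% purine-rich windows over all Cfg3 peaks in genes. Tenm4 held 26 intronic peaks in 8 of its introns and 3 CDS peaks. Of its 29 windows 23 were purine-rich, with a median of 66.3% (47.5 to 78.2%), and the 3 CDS windows, at 48.5 to 52.5%, were among the 6 that were not. Exoc4 held 18 intronic peaks in 7 introns, with 15 of its 19 windows purine-rich. Ptprk, a receptor tyrosine phosphatase gene, held 8 intronic peaks in 4 introns, all purine-rich (63.4 to 82.2%), 1 of them with an unbroken run of 59 purines. Enox1 and St6galnac3, which encodes a sialyltransferase, each held 10 intronic peaks, of which 7 and 5 were purine-rich. Kat6b, Atrx and Ankrd11 held mostly exonic peaks, with 7 of 16, 7 of 11 and 6 of 10 purine-rich windows. All 10 peaks of Ankrd11 lay in 1 CDS exon of 6518 nt. The predicted genes Gm26992, on the X chromosome, and Gm47283, on the Y chromosome, held 11 and 9 peaks, each in 1 intron. Since Y-linked predicted genes can be near-identical copies, reads at Gm47283 may be shared between them and its count is uncertain.

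Over all genes 88.7% of Cfg2 peaks were exonic and 57.4% of Cfg3 peaks intronic. Of the genes with the most peaks of both lists, some were divided in this way and others were not. In Zfp704, 11 of 15 Cfg2 peaks lay in the 3′ UTR, from 418 to 8605 nt past the stop codon, and all 7 Cfg3 peaks were intronic. In Gcnt2, a glycosyltransferase gene, 9 of 12 Cfg2 peaks were exonic and all 7 Cfg3 peaks intronic, and in Ahdc1 the 4 Cfg2 peaks lay in the CDS and 7 of 8 Cfg3 peaks in introns. Adam23 had 4 exonic Cfg2 peaks, against 6 of 7 Cfg3 peaks in introns. Macf1, which encodes a cytoskeletal linker, was mixed, with 6 exonic and 8 intronic Cfg2 peaks and 4 and 5 Cfg3 peaks. Its median purine content was 53.0% in Cfg2 and 60.4% in Cfg3. In Cenpf all 9 Cfg2 and 7 Cfg3 peaks lay in the CDS, and both kinds were purine-rich, with medians of 63.4 and 64.4%. In Arid1a, a chromatin remodeller gene, the order was reversed, with a median of 61.4% over 5 Cfg2 peaks and 52.5% over 5 Cfg3 peaks. The medians were 57.4 and 60.4% in Spen, and 60.9 and 66.3% in the scaffold gene Akap9.

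The 28 gene lists were read by counts only, beside the shares over all genes. Over all genes 47.8% of the peaks (4925 Cfg2 against 5381 Cfg3 peaks) were Cfg2, while of the exonic peaks 65.6% and of the intronic peaks 15.3% were Cfg2. The m6A writer genes were near this level, with 12 Cfg2 and 11 Cfg3 peaks in 7 carrying genes, or 57.1% Cfg2 among exonic peaks. Rbm15, a recruiting factor of the complex, held 6 Cfg2 peaks and no Cfg3 peak, Zc3h13 held 2 Cfg2 peaks in the 3′ UTR and 5 Cfg3 peaks in the CDS, and Virma held 2 of each. The 2 Cfg3 windows of Virma had a median of 66.3% purines and its 2 Cfg2 windows 47.0%. Reader and eraser genes held 19 and 10 peaks. The demethylase gene Alkbh5 held 4 Cfg2 peaks only, the cytoplasmic reader gene Ythdf3 4 of each, and the nuclear reader gene Ythdc1 1 and 2.

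Lists with a Cfg2 share above that of all genes, by exonic and intronic peaks together, included transcription factor and signalling genes. Pluripotency factors held 29 Cfg2 and 10 Cfg3 peaks (74.4% Cfg2). Klf4 alone held 10 of these Cfg2 peaks, 8 of them exonic, and no Cfg3 peak. Esrrb held 2 of each list and Klf2 held 3 Cfg2 peaks. Nodal, BMP and TGF-beta genes held 23 and 10, and of their exonic peaks 23 were Cfg2 and 1 was Cfg3. In Lefty2, a Nodal antagonist gene, and in Ski, a repressor of SMAD signalling, all 3 Cfg3 peaks of either gene were intronic. The GW182 and microRNA silencing genes were alike, with 29 exonic Cfg2 peaks and 1 exonic Cfg3 peak, and 4 and 16 intronic ones. Here Tnrc6c held 10 Cfg2 and 2 Cfg3 peaks, and Tnrc6a 3 of each, with its Cfg3 peaks in introns. Immediate early genes held 20 and 8 peaks, all exonic, among them 3 Cfg2 peaks in Ier2, and 1 Cfg2 and 2 Cfg3 peaks in Dusp6. The replication-dependent histone genes held 10 Cfg2 and 0 Cfg3 peaks, 3 of them in Hist1h1b. Zbtb genes held 42 and 21, Zfp genes 260 and 191, and solute carrier genes 94 and 62, of which 94 and 15 were exonic. Among exonic peaks, the Cfg2 shares of Zbtb (67.2%), Zfp (69.2%) and immediate early genes (71.4%) were nearer to the 65.6% of all genes. Those of pluripotency factors and solute carriers were 78.8% and 86.2%.

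Lists with a lower Cfg2 share included chromatin, splicing and scaffold genes. Among exonic peaks, chromatin remodellers held 30 Cfg2 and 46 Cfg3 peaks (39.5% Cfg2), with 9 exonic Cfg3 peaks in Atrx and 5 Cfg3 against 3 Cfg2 exonic peaks in Bptf. Acetyltransferases and coactivators held 22 and 31 (41.5%). By all peaks, Kat6b, Crebbp and Med13l led this list, but only Kat6b had many exonic ones (9 of 16 Cfg3 peaks), against 3 of 11 in Crebbp and 1 of 10 in Med13l. SR and RS-rich splicing genes held 25 and 43 (36.8%). The leading members did not all share this direction. Acin1 held 4 exonic Cfg3 peaks and no Cfg2 peak, but Srrm2 held 2 exonic Cfg2 peaks and 1 exonic Cfg3 peak, and Son 3 of each. Centromere, centrosome and kinesin genes held 32 and 42 exonic peaks (43.2%), cytolinkers and scaffolds 42 and 61 (40.8%), and exocyst and vesicle tethering genes 12 and 20 (37.5%). The Golgi coiled-coil genes Golga4 and Golgb1 held 7 exonic Cfg3 peaks each, against 1 and 2 Cfg2 peaks, and 8 of 8 and 6 of 7 of their Cfg3 windows were purine-rich. The cytolinker gene Dst held 3 exonic Cfg2 and 9 exonic Cfg3 peaks, whereas Plec held 16 and 2.

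DNA methylation writers and Tet oxidases had the lowest exonic share, with 4 Cfg2 and 18 Cfg3 peaks (18.2% Cfg2). Tet1 and Tet2, which encode dioxygenases of 5-methylcytosine, held 1 Cfg2 and 5 Cfg3 peaks each, 4 of the 5 in the CDS. None of these Cfg3 windows reached 60% purines (0 of 5 in either gene), nor did those of Mbd5 (0 of 3), and over the list 3 of 23 Cfg3 windows did. Polycomb genes held 11 exonic Cfg2 and 7 exonic Cfg3 peaks and 1 and 17 intronic ones. Histone lysine methyltransferases held 37 and 29 exonic peaks (56.1% Cfg2, beside 65.6% over all genes). Of these, Kmt2b (7 and 2) and Kmt2d (6 and 3) lay toward Cfg2, whereas Kmt2c (1 and 3) lay toward Cfg3. Histone lysine demethylases held 20 and 12 exonic peaks and 2 and 24 intronic ones. DNA repair genes held 35 and 23 exonic peaks, Usp deubiquitinases 31 and 11, and Wnt, Notch and Hedgehog genes 41 and 13. Adhesion genes held 18 and 13 exonic and 2 and 42 intronic peaks, 26 of these in Tenm4. Ribosomal protein genes held few, with 9 and 7 peaks, nearly all intronic. Among the long noncoding RNAs, Malat1 held 5 Cfg3 peaks, 4 of them purine-rich, and Kcnq1ot1 1 Cfg2 and 6 Cfg3 peaks. Of the fibroblast markers, 1 of 13 genes carried peaks (Fn1, 2 Cfg2 peaks), beside 4689 of 35281 over all genes. These peaks do not measure expression, so the count cannot show whether feeder cells were present.

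**Figure D5:**
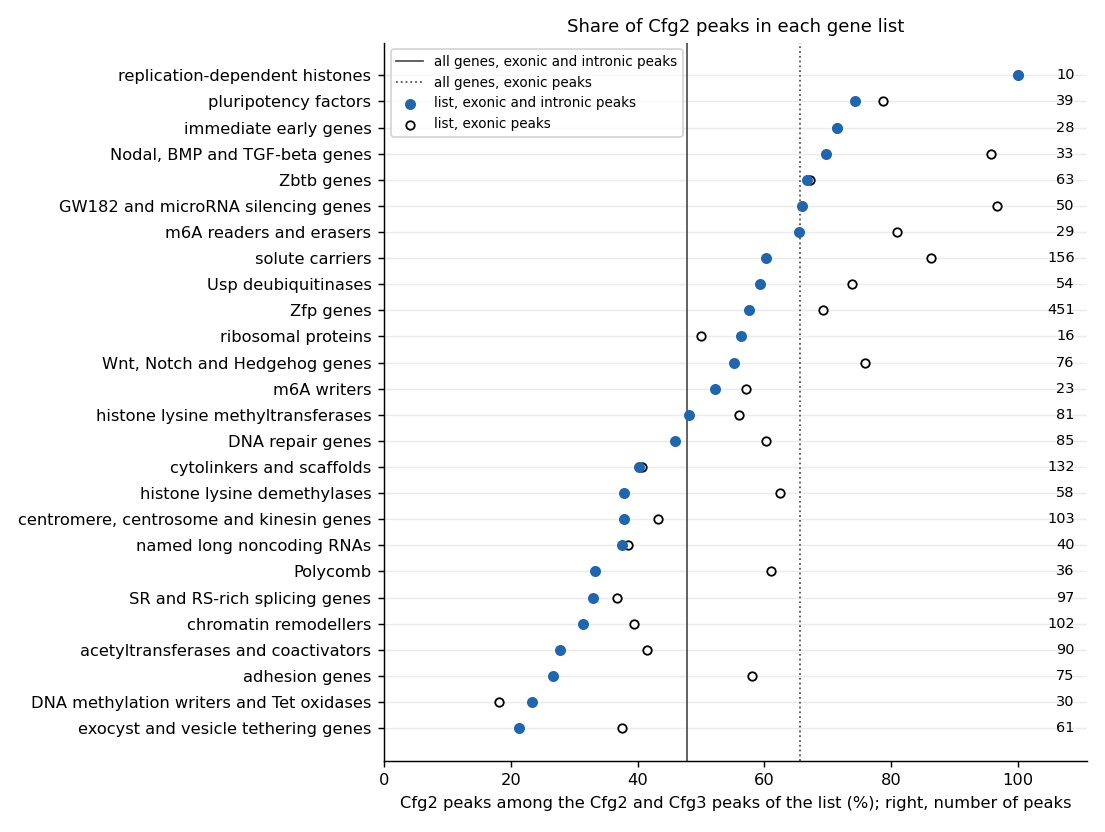
Cfg2 peaks as a percentage of the Cfg2 and Cfg3 peaks of each gene list (horizontal axis), for exonic and intronic peaks together (filled) and exonic peaks alone (open), with the number of peaks at the right and lines for all genes at 47.8% and 65.6%. The fibroblast list, with 2 peaks, is among those left out; exonic shares run from 18.2% for DNA methylation writers and Tet oxidases to 100% for replication-dependent histones.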

How the data were processed

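Peak lists of the ChrMeRIP-seq of E14 mouse embryonic stem cells were used. The deposited values were interval starts and ends (mm10), a strand and a name, with no usable score (type "other" here); the authors called the peaks, per the submitters' notes and the methods, using MACS2 2.1.1, with both libraries of an antibody pooled over their inputs, set the strand by enrichment, separated them at summits and trimmed them. The aligner of these libraries is not given in the sources used here. HOMER is named in the notes. Samples were grouped by the labels, and the lists were taken as Cfg2 and Cfg3.

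Intervals were annotated on GRCm38.p6 with GENCODE vM21, an earlier release than that of the study, with 1 representative transcript for each of 35325 genes, and by midpoints in place of summits. Of 1000 transcripts spliced from the assembly, 1000 matched the transcript file. A stray character beside the strand was dropped in 1 line. The depth per sample is unknown.

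Fisher's exact test (two-sided) compared shares, with Benjamini-Hochberg correction in 3 kinds of family, namely the 11 location tests, the 6 sequence tests and each pentamer scan, at a threshold of 0.05. Shares have 95% Wilson intervals. The scan was tested on simulated data. Genes named were the 10 with the most peaks of either list alone, the 10 with the highest lower count, and up to 3 members of each gene list; some genes and 1 gene list are not reported here. The members, gene lists and tests were chosen with earlier results of these data known. Alternatives covered the transcript rule, limits, motif, window, unsplit peaks, 1 peak per gene, peaks away from the other list, repeats and alternative exons. Software was Python 3.11.15 with numpy 2.4.6, pandas 2.3.3, scipy 1.17.1, pysam 0.24.0 and matplotlib 3.10.9.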

Additional observations from a re-analysis of the deposited data

How the results depend on the processing

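Of 117 alternative settings over all results, 105 kept the direction and the side of the threshold or stayed within 1.5 times the count. The differences in purine content, exon junctions, last exons, long exons, 5′ splice sites, alternative exons, gene ends and repeats were among those that did so under every setting run, though not at the same size. Differences below are Cfg2 minus Cfg3 in percentage points, with Fisher's exact test. Moves of over 1.5 times among the differences that still passed were to 4.68 for long exons at 1000 nt, to -10.96 for junctions at 50 nt, to 11.5 for 5′ splice sites at 200 nt, to 12.8 with the longest transcript and 14.5 at 1000 nt for gene ends, to -19.0 for purines in the 3′ UTR at a threshold of 65%, and to 12.1 for GGACT in the CDS over the whole interval. The transcript start difference was 0.299 with a limit of 100 nt (exact test, adjusted p = 0.21). The first intron difference, which had not passed, changed sign to 0.739 for peaks not split at summits and to 2.98 without positions exonic in another transcript, an alternative chosen after seeing the data. The antisense difference changed sign to -2.35 with 1 peak per gene. With the motif reduced to a central GAC, the CDS difference was 2.12 (exact test, adjusted p = 0.16). For GGACT in the 3′ UTR it was 8.35 over the whole interval (exact test, adjusted p = 0.0017). A ratio of 2 left 57 exonic pentamers for Cfg2, 16 exonic for Cfg3 and 68 intronic for Cfg3, and the whole interval left 29 exonic for Cfg3. With at least 3 peaks, 227 genes were called for Cfg2 and 283 for Cfg3. The cause was not tested. No paired analysis was possible because the lists pool the replicates and hold no value per library, so leaving out each replicate was not possible either. The lists hold no peak height, so no stricter threshold of calling was tried and the limit set by depth is unknown.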

Other observations

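Intergenic Cfg3 peaks that lay antisense to a gene were unlike other Cfg3 peaks on the strand assigned to them. At least 60% pyrimidines, and so at least 60% purines on the other strand, were found in 35.2% of these windows (76 of 216, 95% Wilson interval 29.1 to 41.8%), and at least 60% purines in 50% (108 of 216, 43.4 to 56.6%). In the other intergenic Cfg3 windows the shares were 5.12% (37 of 722) and 64.1% (463 of 722), and in intronic Cfg3 windows 1.55% (48 of 3089) and 82.9%. In antisense Cfg2 windows they were 3.12% (4 of 128) and 7.81% (10 of 128).

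The sex chromosomes held more Cfg3 than Cfg2 peaks, with 228 against 86 on X (3.61% and 1.57% of the lists). On Y there were 36 against 3 (0.570% and 0.0548%), 9 of the Cfg3 peaks in Gm47283, whose count is uncertain. The mitochondrial genome held 6 Cfg3 and 0 Cfg2 peaks. Names that mark a peak divided between summits were carried by 46.0% of Cfg2 peaks (2518 of 5472) and 26.2% of Cfg3 peaks (1655 of 6319), and 9.85% and 3.88% of the intervals had the full width of 250 nt. Peaks shared an intron with another peak of their list at like rates, 43.9% of intronic Cfg2 (245 of 558) and 44.8% of intronic Cfg3 peaks (1385 of 3089), with up to 6 and up to 11 in 1 intron.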
